A study of Rattus norvegicus with 45 samples.

Results

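Heroin H3.3Q5A rats were compared with heroin empty rats, all of which had self-administered heroin and then received an intra-VTA virus. The 16 libraries of these groups, 8 per group, were taken by their labels from a table of 45 libraries, and the genes were those above the table's lowest value in 7 or more of the 16. This left 20472 genes of 32883, of which 17106 were above the lowest value in all 16 libraries and 330 were in exactly 7. A further 356 genes were in exactly 6 and were left out. All rats were male wild-type Sprague-Dawley rats. Each had access to heroin for 10 d, was infused on day 11 with an AAV2 vector, and spent 30 d in forced abstinence before tissue collection. The vectors carried GFP alone (empty) or, beside GFP, a Flag-HA-tagged histone variant H3.3 in which alanine replaces the glutamine at position 5 (H3.3Q5A). The methods name AAV2, whereas the text deposited with the series names a lentiviral vector, and no promoter driving the transgene is given in the sources used here. Punches of 2 mm were cut under GFP illumination from frozen slices, so infected and uninfected cells were collected together, and each rat gave a polyA-selected library. Heroin H3.3 WT rats (n = 7), which received unmutated H3.3, and saline empty and saline H3.3Q5A rats (n = 7 each), which self-administered saline, are given beside the heroin comparison.

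The ventral tegmental area (VTA) is the midbrain nucleus whose dopamine neurons project to the striatum and cortex, and it also contains GABA and glutamate neurons, oligodendrocytes of passing fiber tracts, astrocytes and vessels. Histone H3.3 is deposited outside of DNA replication and accumulates in neurons. Transglutaminase 2 can attach dopamine to the glutamine next to lysine 4 of the H3 tail (H3Q5dop), and the alanine mutant cannot accept it. The comparison addressed what a vector that lowers H3Q5dop does to gene expression in VTA during heroin abstinence. In bulk tissue, fewer cells of a type and less RNA per cell cannot be told apart.

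All 11 named genes listed for meningeal fibroblasts and extracellular matrix had a higher mean in heroin H3.3Q5A than in heroin empty rats. For 8 of them the increase passed the threshold defined next, beside 2.91% of all genes tested. The 14 named genes that passed it as lower (0.701% of the named genes) included Gdap1, Azin1 and Atp2b2. Genes with a limma p under 0.05 after Benjamini-Hochberg adjustment and a change beyond 0.2 on the log2 scale (DEx genes) numbered 802, or 3.92% of the genes tested. Of these, 595 (2.91%) were upregulated and 207 (1.01%) downregulated. Without adjustment, p was under 0.05 for 4273 genes (20.9%). Fold changes are differences of deposited variance-stabilized values, which are on a log2-like scale and compress differences at low read numbers. The upregulated genes had a median log2 fold change of 0.46 and reached 2.17, with 52 beyond 1. The downregulated genes had a median of -0.27 and reached -0.75, and 0 of them were beyond -1. The balance of directions depended on scaling, since centring each library on its median gave 488 upregulated and 916 downregulated genes and quantile normalization gave 416 and 233.

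The upregulated and downregulated genes lay at different levels. The median deposited value was 8.75 for upregulated and 11.8 for downregulated genes, beside 9.03 for all genes tested. When the tested genes were divided by mean value into 4 equal bins from low to high, the bins held 58, 279, 190 and 68 upregulated genes and 4, 26, 47 and 130 downregulated genes. Groups of rats did not overlap at all for 14 genes (0.0684%) that were higher and 19 (0.0928%) that were lower in H3.3Q5A rats, of which 12 and 6 were DEx genes.

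**Figure D1:**
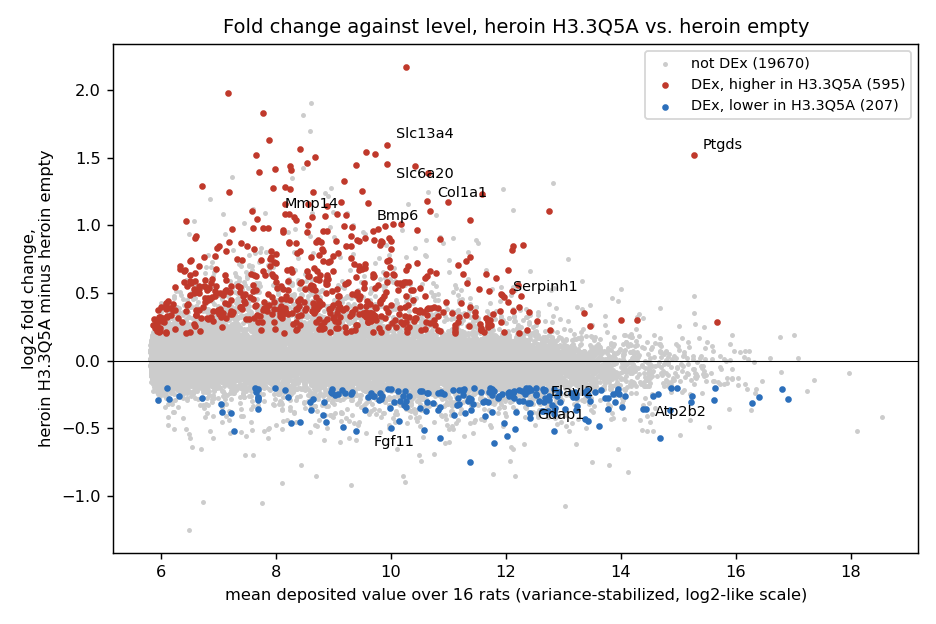
Log2 fold change of heroin H3.3Q5A minus heroin empty rats (y axis) against the mean deposited value over the 16 rats (x axis, log2-like scale), 1 point per tested gene. The 595 upregulated DEx genes (red) sit mostly at low to middle values, and the 207 downregulated DEx genes (blue) at middle to high values with smaller changes.

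Reads recovered from the deposited values ranged from 39805541 to 58316382 per library in H3.3Q5A rats and from 24308953 to 48081011 in empty rats. Mean log2 read totals were 0.35 higher in H3.3Q5A rats (exact permutation test, two-sided, p = 0.0214, n = 8 per group). With the log2 read total as a covariate, 364 DEx genes were called, 292 of them upregulated, and 354 were shared with the 802 in the same direction. In that fit 4 of 11 genes of the meningeal and matrix list were upregulated, against 8 without the covariate, and Col1a1, Fn1, Loxl1, Foxc1, Kdr, Cdh5, Azin1, Atp2b2, Fgf11, Cox5a, Cox6b1, Ranbp6, Ccdc82, Ero1a and Aqp11 were no longer called. Voom on the recovered reads with the same covariate, chosen after seeing the data, gave 154 DEx genes, 116 of them upregulated. A symbol could be given to 1997 of the tested genes. These come from a table of the study that is ordered by a test of saline H3.3 WT rats against saline empty rats, so they are not a random sample of genes. Of the named genes 90 (4.51%) were DEx genes, 76 (3.81%) upregulated and 14 (0.701%) downregulated, and 3.85% of the genes without a symbol were DEx genes. Tyrosine hydroxylase, the dopamine transporter, the opioid genes and the H3.3 genes were not among the named genes, so the midbrain label and the transgene were not analysed here.

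For reference, the 250 bases before the RefSeq transcription start (GRCr8) are shown for 3 of the named genes with the largest increases and for a downregulated calcium pump. They are written 5′ to 3′ on the strand of the gene. Capitals mark letters that match a CCAAT box (CCAAT), a GC box (GGGCGG) or a forkhead motif (TAAACA) on either strand, with adjoining matches written as a single run. Forkhead letters were searched because Foxc1, Foxc2 and Foxd1 were among the upregulated genes.
Slc13a4, chr4:64955987-64956236, minus strand: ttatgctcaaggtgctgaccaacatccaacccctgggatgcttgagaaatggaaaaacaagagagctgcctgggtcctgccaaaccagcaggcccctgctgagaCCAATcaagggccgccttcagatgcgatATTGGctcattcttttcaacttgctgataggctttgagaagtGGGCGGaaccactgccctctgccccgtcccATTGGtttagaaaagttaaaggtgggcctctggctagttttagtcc
Ptgds, chr3:28682979-28683228, minus strand: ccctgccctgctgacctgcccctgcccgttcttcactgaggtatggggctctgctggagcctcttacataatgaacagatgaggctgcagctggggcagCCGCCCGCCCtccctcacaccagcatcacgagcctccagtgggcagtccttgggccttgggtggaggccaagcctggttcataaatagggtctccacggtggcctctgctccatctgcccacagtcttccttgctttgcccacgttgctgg
Bmp6, chr17:26675262-26675511, minus strand: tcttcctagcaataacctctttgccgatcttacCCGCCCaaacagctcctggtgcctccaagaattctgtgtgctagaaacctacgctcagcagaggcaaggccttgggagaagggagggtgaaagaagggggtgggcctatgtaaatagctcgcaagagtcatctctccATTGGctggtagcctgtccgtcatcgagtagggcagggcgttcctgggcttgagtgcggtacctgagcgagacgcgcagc
Atp2b2, chr4:148763654-148763903, minus strand: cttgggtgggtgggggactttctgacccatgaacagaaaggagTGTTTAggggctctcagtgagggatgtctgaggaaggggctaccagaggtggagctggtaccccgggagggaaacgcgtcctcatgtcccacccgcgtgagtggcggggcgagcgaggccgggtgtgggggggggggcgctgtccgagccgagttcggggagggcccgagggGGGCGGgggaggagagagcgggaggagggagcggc

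Of the 90 named DEx genes 60 had such a sequence. A GC box was present in 35 of 50 upregulated (70%) and 8 of 10 downregulated genes (80%), beside 59.7% of 1514 tested genes with a symbol and 32.4% of all 27457 RefSeq promoters. A CCAAT box was present in 30% and 40%, beside 35.9% and 34.3%. Forkhead letters were present in 6% and 10%, beside 6.67% and 12.2%. Among the sequences shown, they occur in the downregulated Atp2b2 and in none of the 3 upregulated genes. The downregulated Fgf11, whose sequence is not shown, had 1 match, a GC box, and no forkhead letters. The TATA box (TATAAA) was present in 4% of upregulated promoters, the AP-1 motif (TGANTCA) in 4% and the CRE (TGACGTCA) in 0%, beside 6.47%, 3.1% and 3.04% of tested genes with a symbol. These are matches of letters in a window, not binding sites.

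Structural matrix genes and their processing enzymes were higher in most H3.3Q5A rats. Of 47 genes listed for meningeal fibroblasts and extracellular matrix 11 could be named, and these are not a random sample of the list. Of the 11, 8 were upregulated DEx genes beside 2.91% of all genes and 3.81% of the named genes. All 11 had a positive fold change beside 52.2% of all genes, with a median of 0.79 beside 0.0064. With median centring or quantile normalization 10 of 11 were positive. The list was written with earlier results known and its genes vary together across rats, so no test was made on it.

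Mmp14 (ENSRNOG00000010947, chromosome 15 of rn6 from 33074440 to 33083655), a membrane-bound metalloproteinase that cleaves collagen, had the lowest p of the genes with a symbol. Its deposited value was 8.997 at the lowest, 9.67 at the median and 10.5 at the highest in H3.3Q5A rats, and 8.41, 8.62 and 9.61 in empty rats. All H3.3Q5A rats were above 7 of the 8 empty rats, and empty rat 5 lay within the H3.3Q5A range. It changed by 1.07 on the log2 scale (standard error, SE, 0.20, adjusted p = 0.00424 from limma with Benjamini-Hochberg adjustment).

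Col1a1 (ENSRNOG00000003897, chromosome 10 from 82745800 to 82762789) encodes the main chain of type I collagen. It was at 9.87, 11.2 and 13.03 (lowest, median, highest) in H3.3Q5A rats and at 9.02, 10.0 and 11.5 in empty rats. The groups overlapped, since the highest empty value, that of rat 5, was above all H3.3Q5A rats but 25 and 26. The log2 fold change was 1.18 (SE 0.35, adjusted p = 0.045 from limma), and it was called in 5 of 16 fits that each left out a rat.

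Fbln1, a fibulin of basement membranes and elastic fibers, was at 10.4, 11.7 and 12.7 in H3.3Q5A rats and at 9.91, 10.4 and 11.5 in empty rats, a log2 fold change of 1.17 (SE 0.25, adjusted p = 0.00787 from limma). Serpinh1, the collagen chaperone of the endoplasmic reticulum, was at 11.7, 12.1 and 12.8 against 11.4, 11.7 and 12.1 (log2 fold change 0.47, adjusted p = 0.008 from limma). Both remained called whichever rat was left out. Loxl1, which crosslinks elastin, had a log2 fold change of 0.79 (adjusted p = 0.0348 from limma) and Fn1, fibronectin, of 0.56 (adjusted p = 0.0434). Loxl1 was called in 8 and Fn1 in 5 of the 16 fits without a rat. The other members of the list that did not pass were Igfbp2, Mmp2 and Foxs1.

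**Figure D2:**
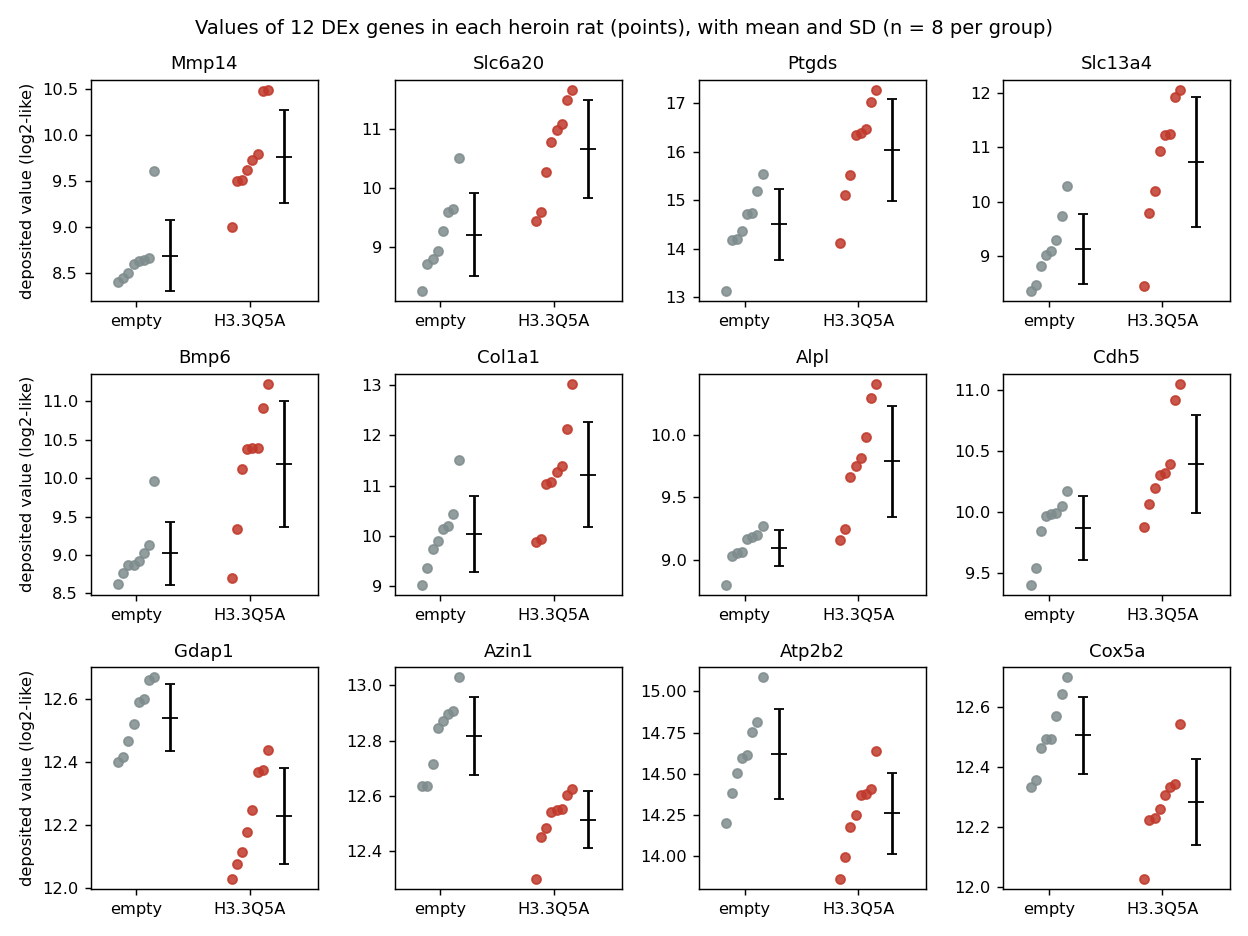
Deposited values (y axis, log2-like scale) of 12 DEx genes in each heroin rat, with empty rats in grey and H3.3Q5A rats in red, and the mean with SD (n = 8 per group) beside the points. The groups overlap for all but Azin1, and the spread among H3.3Q5A rats is wide for the upregulated genes, as for Slc13a4 from 8.46 to 12.1.

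Slc13a4, Ptgds and Slc6a20 were DEx genes with log2 fold changes between 1.45 and 1.59. Genes without a symbol reached 2.17. Slc13a4 (ENSRNOG00000011184, chromosome 4 of rn6 from 62797676 to 62840357), a sulfate transporter, was at 8.46, 11.1 and 12.1 in H3.3Q5A rats and at 8.36, 9.07 and 10.3 in empty rats. H3.3Q5A rat 21 was near the bottom of the empty range, and 5 of the 8 H3.3Q5A rats were above every empty rat. The log2 fold change was 1.59 (SE 0.39, adjusted p = 0.016 from limma). Its SD was 1.20 in H3.3Q5A and 0.64 in empty rats, whereas the SE rests on 1 spread estimated over all 6 groups.

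Ptgds (ENSRNOG00000015550, chromosome 3 from 2686122 to 2689084) encodes the prostaglandin D2 synthase that leptomeninges secrete into cerebrospinal fluid. It was at 14.1, 16.4 and 17.3 in H3.3Q5A rats and at 13.1, 14.5 and 15.5 in empty rats. The log2 fold change was 1.52 (SE 0.36, adjusted p = 0.0124 from limma). Slc6a20, a transporter of proline and other imino acids, was at 9.44, 10.9 and 11.7 against 8.25, 9.10 and 10.5, a log2 fold change of 1.45 (adjusted p = 0.00567 from limma). All H3.3Q5A rats were above the empty mean for Slc6a20, and 7 of 8 were for Ptgds and Slc13a4.

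Signaling genes and forkhead factors of the meninges were also among the DEx genes. Bmp6 (ENSRNOG00000013717, chromosome 17 from 26955141 to 27112820), a secreted bone morphogenetic protein, was at 8.70, 10.4 and 11.2 in H3.3Q5A rats and at 8.62, 8.90 and 9.97 in empty rats, with a log2 fold change of 1.16 (SE 0.24, adjusted p = 0.00714 from limma). Foxd1 had a log2 fold change of 0.81 (adjusted p = 0.00708) and Foxc1, which is needed for meningeal development, of 0.73 (adjusted p = 0.0266). Foxd1 was at 7.57, 8.34 and 9.05 against 7.11, 7.54 and 7.94, so that the ranges overlapped between 7.57 and 7.94.

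Other genes with a low p had various roles. Alpl, tissue-nonspecific alkaline phosphatase, was at 9.16, 9.78 and 10.4 in H3.3Q5A rats and at 8.80, 9.11 and 9.27 in empty rats (log2 fold change 0.70, adjusted p = 0.00424 from limma). Htra3, a secreted serine protease, changed by 0.76 (adjusted p = 0.0062) and Fxyd5, a regulator of the sodium pump, by 0.68 (adjusted p = 0.00663). Boc, a cell surface coreceptor for hedgehog, changed by 0.64 (adjusted p = 0.00779), and Ier3, an early response gene, by 0.52 (adjusted p = 0.00709). Bcat2, the mitochondrial aminotransferase of branched-chain amino acids, changed by 0.44 (adjusted p = 0.0069). All of these were called in each of the 16 fits that left out a rat.

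Further upregulated genes were chosen after their values were seen, for their known roles. Bmp7 had a log2 fold change of 1.27 (SE 0.28, adjusted p = 0.00854 from limma) and Foxc2 of 1.05 (adjusted p = 0.026). Thbs2, a matricellular thrombospondin, changed by 0.96 (adjusted p = 0.00954), and Gjb2, the gap junction protein connexin 26, by 0.89 (adjusted p = 0.0114). The organic anion transporter Slc22a8 changed by 0.82 (adjusted p = 0.0231) and the matrix protein Mgp by 0.67 (adjusted p = 0.0424). Basement membrane genes Lamb2 and Nid2 were upregulated by 0.50 (adjusted p = 0.0157) and 0.48 (adjusted p = 0.0455).

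Vessel genes were measured separately. Of 9 named endothelial genes 2 were upregulated DEx genes, beside 2.91% of all genes and 3.81% of the named genes. Cdh5, the adherens junction cadherin of endothelium, was at 9.88, 10.3 and 11.1 in H3.3Q5A rats and at 9.40, 9.97 and 10.2 in empty rats (log2 fold change 0.52, adjusted p = 0.0256 from limma). Kdr, a receptor of vascular endothelial growth factor, had a log2 fold change of 0.43 (adjusted p = 0.024). The median over the 9 was 0.067, with 8 positive, 5 under median centring and 6 under quantile normalization. Of 9 genes of pericytes and smooth muscle 0 were DEx genes by limma and 7 were positive, with a median of 0.46. The lowest p among them was that of Pdgfrb at 0.33 (adjusted p = 0.0529), and Acta2 was at 0.78 (adjusted p = 0.146). The 5 hemoglobin and red cell genes had a positive median of 0.52 with 0 DEx genes, and Hba-a1 was at 0.66 (adjusted p = 0.251 from limma).

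The downregulated genes with a symbol numbered 14, with log2 fold changes from -0.21 to -0.51. Gdap1 (ENSRNOG00000005850, chromosome 5 of rn6 from 1328912 to 1347921), a mitochondrial outer membrane protein of neurons, was at 12.03, 12.2 and 12.4 in H3.3Q5A rats and at 12.4, 12.6 and 12.7 in empty rats. The ranges met at their ends and all 8 H3.3Q5A rats were below the empty mean. The log2 fold change was -0.31 (SE 0.07, adjusted p = 0.00709 from limma), and it was called in all 16 fits without a rat.

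Azin1, an inhibitor of the antizymes that restrain polyamine synthesis, was the named DEx gene without overlap between the groups. Its values were 12.3, 12.5 and 12.6 in H3.3Q5A rats and 12.6, 12.9 and 13.03 in empty rats, a log2 fold change of -0.30 (SE 0.08, adjusted p = 0.0281 from limma). It was called in 10 of 16 fits that left out a rat. Of the other genes, Ugcg, the first enzyme of glycosphingolipid synthesis, changed by -0.21 (adjusted p = 0.0116) and Elavl2, a neuronal RNA-binding protein, by -0.30 (adjusted p = 0.021).

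A calcium pump and a growth factor homolog were also among the downregulated genes. Atp2b2 (ENSRNOG00000030269, chromosome 4 from 145703045 to 146016325), a plasma membrane calcium pump of neurons, was at 13.9, 14.3 and 14.6 in H3.3Q5A rats and at 14.2, 14.6 and 15.1 in empty rats. Its ranges overlapped, with 7 of 8 H3.3Q5A rats below the empty mean. The log2 fold change was -0.36 (SE 0.10, adjusted p = 0.0387 from limma), called in 8 of 16 fits without a rat. Fgf11, an intracellular fibroblast growth factor homolog of neurons, changed by -0.51 (SE 0.16, adjusted p = 0.0481), called in 4 of 16 fits without a rat.

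Of 44 genes listed for the mitochondrial respiratory chain 5 could be named, all with negative fold changes and a median of -0.17, and 1 was a downregulated DEx gene, beside 1.01% of all genes. That gene was Cox5a, a nuclear-encoded subunit of cytochrome c oxidase, at 12.03, 12.3 and 12.5 in H3.3Q5A rats and 12.3, 12.5 and 12.7 in empty rats (log2 fold change -0.22, adjusted p = 0.0252 from limma). Cox6b1, a further subunit that is not on the list, changed by -0.22 (adjusted p = 0.0311). Mvk, mevalonate kinase of cholesterol synthesis, changed by -0.26 (adjusted p = 0.0131), and it was the 1 downregulated DEx gene among 4 of its list, beside the same 1.01%. The remaining downregulated genes were Ranbp6 (-0.23, adjusted p = 0.0275), Ccdc82 (-0.30, 0.0429), the oxidoreductase Ero1a (-0.24, 0.0455), the aquaporin Aqp11 (-0.29, 0.0474) and the sugar transporter Slc2a6 (-0.26, 0.0496). Of the 16 fits without a rat, Mvk was called in 15, Cox5a in 12, Ranbp6 in 11 and Cox6b1 in 9. Ero1a was called in 7, Ccdc82 in 6 and Aqp11 in 4.

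The oligodendrocyte and myelin list held 42 genes, of which 26 had a symbol. All 26 had negative fold changes, also under median centring and quantile normalization, whereas 52.2% of all genes had positive ones. Their median was -0.36 beside 0.0064 for all genes, and the members vary together across rats, so no test was made on the list. By limma 0 of them were DEx genes. The number was 8 without H3.3Q5A rat 21, which had the highest myelin sum of its group, and 18 with a residual factor. The factor takes out residual spread by construction and leaving out the highest rat lowers its group, so neither number is support. Enpp2, the lysophospholipase autotaxin of oligodendrocytes, was at 12.9, 13.3 and 13.7 in H3.3Q5A rats and at 13.3, 13.7 and 13.9 in empty rats. The groups overlapped, with 7 of 8 H3.3Q5A rats below the empty mean. The log2 fold change was -0.36 (SE 0.12, adjusted p = 0.0733 by limma).

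Of 5 named genes of synaptic vesicle release all had negative fold changes and 0 were DEx genes by limma. Syt2, a calcium sensor of fast transmitter release, was at 10.9, 11.6 and 13.1 in H3.3Q5A rats and at 11.4, 12.6 and 13.4 in empty rats (log2 fold change -0.85, adjusted p = 0.0628). Syt3 was at -0.24 (adjusted p = 0.111). The list of action potential channels had 5 named genes, of which the calcium pump Atp2b2 was a downregulated DEx gene (beside 1.01% of all genes) and no channel gene was called by limma. The sodium channel gene Scn9a was at 0.49 (adjusted p = 0.224) and Scn3a at 0.07 (adjusted p = 0.758), whereas Hcn2 was at -0.29 (adjusted p = 0.308). Of 8 glutamate receptor and scaffold genes 0 were, and Grm3, a metabotropic receptor of neurons and astrocytes, was at -0.31 (adjusted p = 0.225). The 4 astrocyte genes had a median of 0.21, with Ntsr2 at 0.25 (adjusted p = 0.226).

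Genes of histone H3 biology were named in 5 cases and none passed the threshold. Tgm2, the transglutaminase that writes H3Q5dop, was at 9.16, 10.2 and 10.6 in H3.3Q5A rats and at 8.72, 9.66 and 10.1 in empty rats, a log2 fold change of 0.52 (SE 0.19, adjusted p = 0.101 from limma) with 7 of 8 rats above the empty mean. Kdm5b, a demethylase of lysine 4 of H3, was at 11.9, 11.9 and 12.1 against 11.7, 11.8 and 11.9 (log2 fold change 0.16, adjusted p = 0.0648). Of 12 splicing factors, 6 genes of cytokine receptors and signaling, and 4 genes of cAMP and CREB signaling 0 were DEx genes by limma. Snrpd1 was at -0.12 (adjusted p = 0.447), Luc7l3 at 0.12 (adjusted p = 0.564), Tgfbr2 at 0.33 (adjusted p = 0.0571), Il17ra at 0.15 (adjusted p = 0.149), Adcy5 at 0.08 (adjusted p = 0.488) and Prkar2b at 0.10 (adjusted p = 0.39).

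Lists of other tissue near or in a punch were also read. The 3 named pituitary genes were positive, with Tbx19 at 0.61 (adjusted p = 0.0918 from limma) and Cga, the shared subunit of glycoprotein hormones, at 1.01 (adjusted p = 0.418). Cga was at the table's lowest value in at least 1 empty rat and at 10.4 in empty rat 21. Genes of oligodendrocyte precursors had 0 DEx genes among 5, with Enpp6 at -0.20 (adjusted p = 0.548) and Cspg4 at -0.08 (adjusted p = 0.607). Of 3 protein folding genes 0 were DEx, with Hspb1 at 0.55 (adjusted p = 0.1) and Chac1 at -0.22 (adjusted p = 0.253).

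The groups were not uniform, and the same rats stood at the ends for many genes. Of the 76 named upregulated genes, H3.3Q5A rat 26 had the highest value in its group for 46 and rat 25 for 25, whereas rat 21 had the lowest for 37 and rat 24 for 35. Among empty rats, rat 5 had the highest value for 52. For the 14 named downregulated genes, H3.3Q5A rat 25 was lowest for 12 and rat 21 highest for 11. These genes were called from the same values, so these counts are a description. The H3.3Q5A median was above every empty rat for 57 of the 76, and every H3.3Q5A rat was above the empty median for 42. Both counts follow in part from calling the genes on the same values. The shares over all genes are not given here, so these counts too are only a description.

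Summed over the 11 meningeal and matrix genes, normalized reads were 31070 at the lowest, 104620 at the median and 190520 at the highest in H3.3Q5A rats, and 18934, 35894 and 68263 in empty rats. H3.3Q5A rats 21, 24 and 40, at 31070, 48518 and 64139, were inside the empty range, and the other 5 of 8 were above every empty rat. Most of this sum was Ptgds, at a median of 84276 in H3.3Q5A and 23947 in empty rats. The other 10 genes, summed apart after the values were seen, were at 13267, 20265 and 44711 in H3.3Q5A rats and at 8918.7, 11986 and 21013 in empty rats, and 2 of the 8 H3.3Q5A rats were above every empty rat. None of the 11 genes was at 0 in any of the 16 libraries. Summed over the 26 myelin genes, normalized reads were 522120, 750570 and 1242500 in H3.3Q5A rats and 694450, 1109700 and 1481900 in empty rats. The rat with the highest matrix sum, H3.3Q5A rat 25, had the lowest myelin sum, and the rat with the lowest matrix sum, rat 21, had the highest. The median matrix sum was 61252 in saline empty rats (52138 to 98692), 52437 in saline H3.3Q5A rats (31854 to 85805), 136780 in saline H3.3 WT rats and 33345 in heroin H3.3 WT rats. The saline empty and saline H3.3Q5A medians thus lay between those of heroin empty and heroin H3.3Q5A rats. The saline H3.3 WT median lay above that of heroin H3.3Q5A rats. Without Ptgds the saline H3.3 WT median was 25606 (11419 to 30937), and 6 of these 7 rats were above every heroin empty rat. High matrix sums were therefore not particular to heroin H3.3Q5A rats. The part of the makeup of the punches in the single gene results was not tested.

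**Figure D3:**
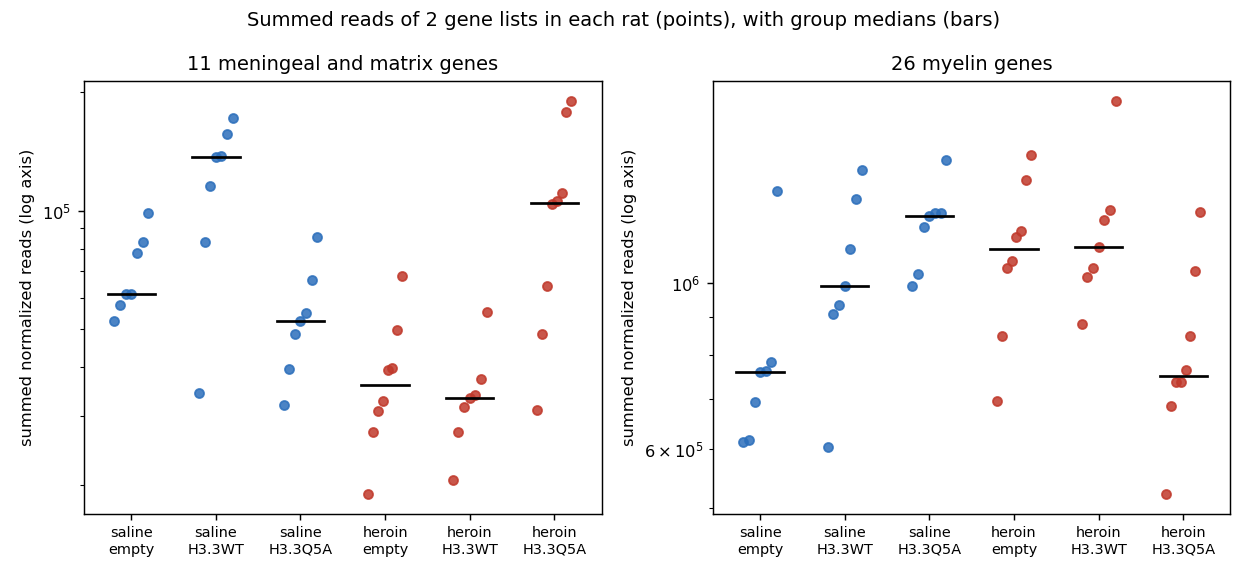
Normalized reads (y axis, log scale) summed over 11 meningeal and matrix genes (left) and 26 myelin genes (right) in each rat of the 6 groups, with bars at the group medians and heroin groups in red. The median matrix sum is 104620 in heroin H3.3Q5A and 35894 in heroin empty rats, and the median myelin sums are 750570 and 1109700.

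The same vectors were next compared in saline rats, which share no library with the heroin comparison. Saline H3.3Q5A rats differed from saline empty rats in 1203 DEx genes (5.88%), with 3.78% of the tested genes higher and 2.1% lower. Of the 595 genes upregulated after heroin, 499 had a fold change of opposite sign after saline, 29 were DEx genes in the opposite direction and 1 in the same direction. Their median log2 fold change after saline was -0.18, beside -0.011 for all genes. Of the 207 downregulated genes, 191 had the opposite sign after saline, 51 were DEx genes in the opposite direction and 0 in the same direction, with a median of 0.16. The share of opposite signs over all tested genes is not given here, so the sign counts are a description only.

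The interaction of heroin and H3.3Q5A tested the difference itself and passed the threshold for 3232 genes (15.8%), with 7.81% positive and 7.98% negative. It passed for 473 of the 595 upregulated and 180 of the 207 downregulated genes. These were chosen by the heroin difference, which is part of the interaction, so their share is not set against the background. Among the named DEx genes it passed for 47 of 76 and 12 of 14. Atp2b2 had log2 fold changes of -0.36 after heroin and 0.58 after saline (adjusted p = 0.0115 from limma), with an interaction of -0.94 (SE 0.15, adjusted p = 0.000754). Mvk changed by 0.25 (adjusted p = 0.0249), Cox5a by 0.23 (adjusted p = 0.0267) and Aqp11 by 0.41 (adjusted p = 0.0149) after saline, each opposite to heroin.

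Of the 76 named upregulated genes 49 had a negative saline fold change, and 3 were DEx genes after saline. Slc13a4 was at -0.59 after saline (adjusted p = 0.388 from limma), with an interaction of 2.18 (SE 0.57, adjusted p = 0.00784). Ptgds was at -0.54 (adjusted p = 0.385) with an interaction of 2.06, and Bmp6 at -0.41 (adjusted p = 0.334) with an interaction of 1.57. The vessel genes Cdh5 and Kdr had positive fold changes after both saline and heroin, and their interactions of 0.41 (adjusted p = 0.164 from limma) and 0.20 (adjusted p = 0.423) did not pass. Of the 26 myelin genes 25 passed the interaction with a negative value, beside 7.98% of all genes. After saline 22 of the 26 were upregulated DEx genes (3.78% of all genes), with a median of 0.62, whereas 0 passed after heroin. The 26 were named from a table ordered by a test against the same saline empty rats, which also enter the interaction. The shares of all genes are therefore not a like background for them. The median myelin sum was 1228200 in saline H3.3Q5A and 758870 in saline empty rats. Enpp2 was at 0.42 after saline (adjusted p = 0.0457 from limma), with an interaction of -0.78 (adjusted p = 0.00378). Syt2 passed with -2.21 (adjusted p = 0.00111), after a saline fold change of 1.36 (adjusted p = 0.0118).

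**Figure D4:**
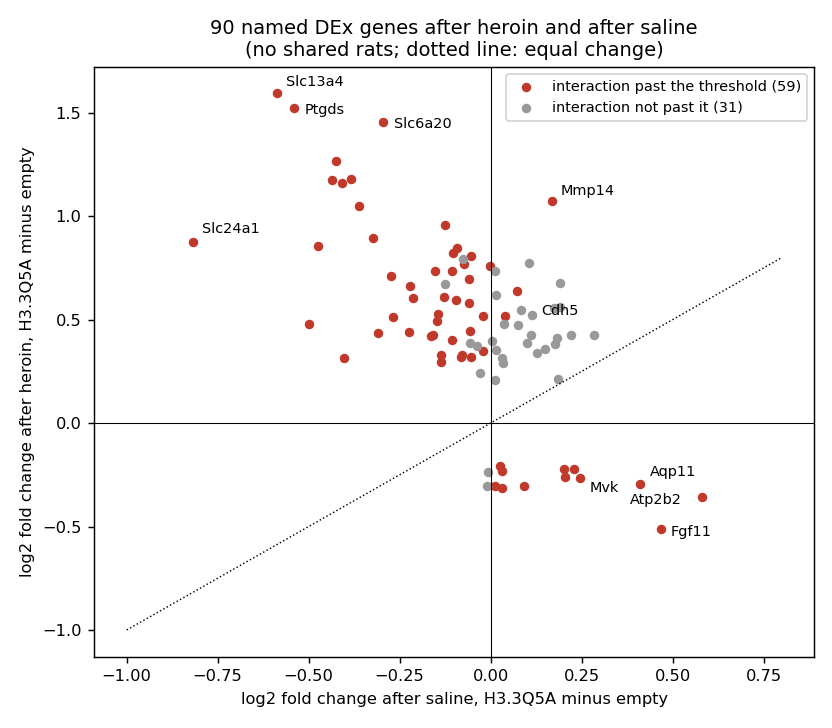
Log2 fold change of H3.3Q5A minus empty after heroin (y axis) against that after saline (x axis) for the 90 named DEx genes, with genes whose interaction passed the threshold in red. Most upregulated genes lie left of 0 on the x axis, and 12 of the 14 downregulated genes lie right of it.

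Heroin H3.3 WT rats gave a control with unmutated H3.3. Heroin H3.3Q5A rats differed from them in 678 DEx genes (3.31%). This comparison shares the 8 heroin H3.3Q5A libraries, so its values are given side by side only. Of the 595 genes upregulated against empty, 332 were also upregulated DEx genes against H3.3 WT, with a median log2 fold change of 0.42, and 52 of the 207 downregulated genes were also downregulated, with a median of -0.20. Ptgds was at 1.67 against H3.3 WT (adjusted p = 0.0103 from limma), Slc13a4 at 1.68 (adjusted p = 0.0165), Col1a1 at 1.55 (adjusted p = 0.0147) and Atp2b2 at -0.41 (adjusted p = 0.0245). Mmp14, at 0.61 (adjusted p = 0.084), Gdap1, at -0.16 (adjusted p = 0.169), and Azin1, at -0.11 (adjusted p = 0.52), did not pass against H3.3 WT.

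Single rats decided much of the number of DEx genes. It fell from 802 to 176 without H3.3Q5A rat 25 and to 270 without rat 26, and rose to 1689 without rat 21. Without both rats 21 and 25 it was 752. Among empty rats it was 336 without rat 14, 359 without rat 7, 436 without rat 16, 532 without rat 6 and 1224 without rat 2, and among H3.3Q5A rats 450 without rat 37 and 523 without rat 39. Upregulated genes outnumbered downregulated genes in all of these fits. Of the matrix list, 3 genes were DEx without rat 25 and 9 without rat 21, and all 11 fold changes stayed positive. In a fit of the 16 compared libraries alone, 130 DEx genes were called, 102 of them upregulated, with 1 gene of the matrix list.

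**Figure D5:**
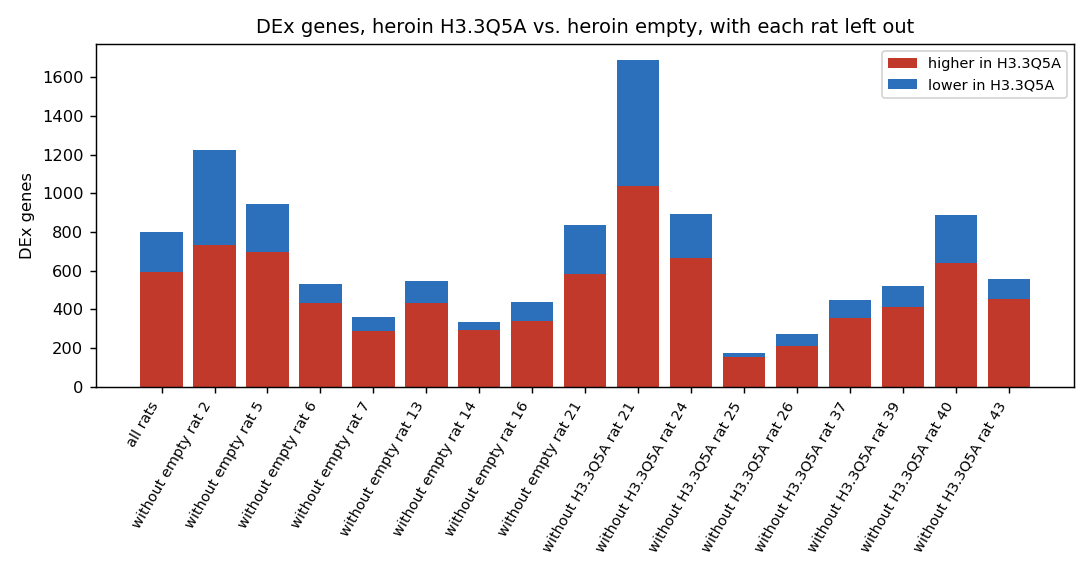
Number of DEx genes (y axis) between heroin H3.3Q5A and heroin empty rats in the fit of all rats and in fits that each left out a rat, with upregulated genes in red and downregulated genes in blue. The count ranges from 176 without H3.3Q5A rat 25 to 1689 without H3.3Q5A rat 21, against 802 with all rats.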

How the data were processed

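Gene expression was measured by polyA RNA-seq in VTA punches. Per the submitters' processing notes, the authors used HISAT2 2.1.0 on Rnor_6.0 (rn6), featureCounts 2.0.1 and DESeq2 2.11.40.6. Deposited were log2-like values, the authors' variance-stabilized counts, from 5.73 (a count of 0) to 19.5, for 45 libraries. The methods name RUVr without the number of factors. Inverting the transformation gave whole reads for 100% of values (tolerance 0.05), and these set the precision at low counts. Lists were summed over the reads divided by the authors' size factors.

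All 44 libraries with unambiguous labels in the 6 groups entered 1 fit with limma 3.58.1 in R 4.3.3, with a variance trend and no covariate. The SE and p of a gene thus rest on 1 spread shared by the 6 groups. Heroin H3.3Q5A rats were more spread than heroin empty rats for genes such as Slc13a4, Bmp6 and Alpl. A further library with conflicting labels was left out. No count model was run on the recovered reads, for which voom was the alternative. Alternatives are given below. Named genes were those with the 12 lowest adjusted p and the 6 largest fold changes above the median level per direction, DEx or low-p members of hand-written lists, Tgm2 and 2 identifiers per direction. Names come from a readable part of the study's tables, whose test columns were not used. Members and lists were chosen with earlier results of these data known. Some genes that the rule names were left out here. Scripts were tested on simulated data. In 56 pairs of libraries within groups, the lowest chi-square per gene was 13.6, so no duplicates were found.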

Additional observations from a re-analysis of the deposited data

Results flagged for a closer look

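Among 124 groups of values of the named genes, 10 had a rat far from the others, where chance gives about 6.2, and the genes are not independent. Heroin empty rat 5 was the high rat for Mmp14 at 9.61 (others 8.41 to 8.67), Bcat2 at 10.1 (others 9.44 to 9.605), Bmp6 at 9.97 (others 8.62 to 9.13), Fbln1 at 11.5 (others 9.91 to 10.5) and Acta2 at 11.3 (others 9.71 to 10.4). Heroin empty rat 21 had Cga at 10.4 (others 5.73 to 7.45), rat 7 had Snrpd1 at 9.68 (others 9.99 to 10.1) and rat 2 had Enpp6 at 8.38 (others 9.08 to 9.61). Heroin H3.3Q5A rat 24 had Tgm2 at 9.16 (others 10.1 to 10.6) and rat 21 had Il17ra at 10.6 (others 10.1 to 10.2).

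By limma's test of the interaction, the effect of H3.3Q5A differed between heroin and saline rats for 40 of the 61 named genes. Of these 40, 29 were DEx genes after heroin. The interaction passed for 15.8% of all genes. Many of the 61 were named for their heroin difference, which is part of the interaction, so the shares are not compared. In log2 units, the effect after heroin minus that after saline was positive for the DEx genes Slc13a4 (2.18), Ptgds (2.06), Slc6a20 (1.75), Fbln1 (1.61), Bmp6 (1.57), Col1a1 (1.56), Mmp14 (0.91), Foxd1 (0.86), Foxc1 (0.84), Htra3 (0.76), Alpl (0.75), Boc (0.57), ENSRNOG00000013364 (0.55), Bcat2 (0.50), Ier3 (0.48) and ENSRNOG00000014333 (0.41). It was negative for the DEx genes Fgf11 (-0.98), Atp2b2 (-0.94), Aqp11 (-0.70), ENSRNOG00000006226 (-0.60), ENSRNOG00000042502 (-0.59), Mvk (-0.51), Cox5a (-0.45), Cox6b1 (-0.42), Ccdc82 (-0.40), Gdap1 (-0.34), Elavl2 (-0.32), Ranbp6 (-0.26) and Ugcg (-0.23). Of the named genes that were not DEx after heroin, it was positive for Tbx19 (1.27), Luc7l3 (0.51), Prkar2b (0.40) and Kdm5b (0.39) and negative for Syt2 (-2.21), Grm3 (-1.02), Enpp2 (-0.78), Enpp6 (-0.72), Chac1 (-0.70), Syt3 (-0.58) and Grik4 (-0.40).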

How the results depend on the processing

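DEx genes numbered 130 with only the 16 compared libraries, 521 with genes above the median level, 1404 with median centring, 1869 with 1 and 2407 with 3 residual factors, 364 with a read total covariate, 1716 with array weights, 1443 at an FDR of 0.1 and 154 with voom and the read total, an alternative chosen after seeing the data. Voom alone gave 552. Leaving out a rat gave 176 to 1689. By construction, residual factors do not change the fold changes but take out residual spread, and their higher counts follow from that. DEx genes in the gene lists, 13 as reported, numbered 2 with only the 16 libraries, 21 with median centring, 42 and 60 with 1 and 3 residual factors, 5 with the read total, also under voom, 29 with array weights, 23 at an FDR of 0.1, and 3 to 29 with a rat left out. Interaction genes, 3232 as reported, numbered 5340 with 3 residual factors and 4986 with array weights, and 2420 to 4125 with a rat left out. The cause of the other shifts was not tested. With a rat left out, 836 calls of named genes were unchanged, 125 were lost and 15 gained. Under the other settings 850 were unchanged, 85 lost and 34 gained. The direction was kept in all of these. No paired analysis was possible because the labels give no pairing. The 1 rat number found in both groups, 21, belongs to separate libraries with different vectors. Rat numbers ran from 2 to 21 in heroin empty and from 21 to 43 in heroin H3.3Q5A rats. Whether they stand for an order of handling is not stated and was not tested. Read depth limits genes with few reads, and the spread among H3.3Q5A rats limits the upregulated genes.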

Other observations

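Among genes without a symbol in the table used here, ENSRNOG00000014333 had the lowest adjusted p, 0.00273 by limma. It was at 10.6, 10.8 and 11.1 (lowest, median, highest) in heroin H3.3Q5A rats and at 10.3, 10.5 and 10.6 in heroin empty rats, a log2 fold change of 0.38 beside -0.03 after saline. ENSRNOG00000013364 had a log2 fold change of 0.35 (adjusted p = 0.00371) after heroin and -0.20 (adjusted p = 0.0519) after saline. In the other direction, ENSRNOG00000006226 was at 11.5 ± 0.173 against 11.8 ± 0.121 (SD, n = 8 per group), a log2 fold change of -0.31 (adjusted p = 0.00397) beside 0.30 (adjusted p = 0.0115) after saline. ENSRNOG00000042502 changed by -0.39 (adjusted p = 0.00424), with all 8 H3.3Q5A rats below the empty mean.

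Among the named upregulated genes, the 3 that were DEx genes in the opposite direction after saline were picked after the values were seen. Slc24a1, a sodium-calcium exchanger, had log2 fold changes of 0.87 after heroin (adjusted p = 0.0205 by limma) and -0.82 after saline. Iqcd had 0.48 (adjusted p = 0.0332) and -0.50, and Btg1, an antiproliferative gene, had 0.31 (adjusted p = 0.0252) and -0.40.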
